A study of Mus musculus with 12 samples.

Results

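The Ctdsp small phosphatases are a family of 4 mouse genes, Ctdsp1, Ctdsp2, Ctdspl and Ctdspl2. They were chosen by symbol, through the Ensembl identifiers in the GENCODE M21 annotation, and all 4 were found among the 30630 genes listed for each tumor. Expression was measured by RNA-seq in 12 tumors of CT-26 cells, a mouse colon carcinoma line. The cells had been injected in Matrigel under the skin of the right flank of male BALB/c mice, bought at 4 to 6 weeks of age, which were then assigned to a control group or a swimming group. Mice of the swimming group swam in warm water for 3 weeks, mice of the control group did not, and 6 tumors of each group, each from a different mouse, were sequenced. All mice carried the same line and no other treatment or allele is named. Values are given as FPKM, fragments per kilobase of gene scaled to depth, so levels of genes of different length can be set side by side. The family was proposed because Ctdsp2 differed between the groups in these tumors. The values of its members are therefore given as a description, with no p.

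As background, the members of this family remove phosphate from serine or threonine with the help of an aspartate that takes up the phosphate, in the motif DXDX followed by T or V. Ctdsp1, Ctdsp2 and Ctdspl are known as SCP1, SCP2 and SCP3, for small C-terminal domain phosphatase. They act on the tail of the largest subunit of RNA polymerase II, mainly at serine 5 of its repeats, which is phosphorylated when transcription starts. They also work with REST, which keeps neuronal genes silent in other tissues, and take phosphate off SMAD proteins, which carry TGF-beta and BMP signals. Ctdspl2 is a longer relative with a similar catalytic domain. Ctdsp1, Ctdsp2 and Ctdspl each carry a miR-26 gene in an intron.

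The catalytic stretch is shown because it holds the motif shared by the members, and because it shows how the genes differ where they are most alike. The 60 bases begin 15 bases before the first aspartate codon of the motif, which was found 1 time in each protein, and capitals mark bases that differ from Ctdsp2. The sequences are spliced coding sequence of the plus strand on GRCm38, taken from the GENCODE M21 transcripts, and in each of the 4 members the stretch crosses an intron.
Ctdsp1, chr1:74393851-74394027: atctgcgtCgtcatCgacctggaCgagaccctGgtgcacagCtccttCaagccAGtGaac
Ctdsp2, chr10:126993059-126993860: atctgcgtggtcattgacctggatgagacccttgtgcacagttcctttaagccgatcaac
Ctdspl, chr9:119026988-119030204: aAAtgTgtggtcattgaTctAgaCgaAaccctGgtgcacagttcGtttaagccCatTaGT
Ctdspl2, chr2:121988881-121993384: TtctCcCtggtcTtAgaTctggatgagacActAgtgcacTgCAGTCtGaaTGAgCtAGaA
From Ctdsp2, Ctdsp1 differed at 9 of the 60 bases, Ctdspl at 13 and Ctdspl2 at 22. Over the aligned coding sequence of the longest coding transcripts, identity ranged from 68.6% between Ctdspl and Ctdspl2 to 77.7% between Ctdsp2 and Ctdspl. The longest run of bases shared by transcripts of 2 members was 23 bases, between Ctdsp2 and Ctdspl.

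The mature miR-26 sequences are shown because they come from introns of 3 of the members. Capitals mark the seed, bases 2 to 8, and the sequences and their positions on GRCm38.p6, all on the plus strand, are from RefSeq.
mmu-miR-26b-5p, in Ctdsp1, chr1:74394324-74394344: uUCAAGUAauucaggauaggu
mmu-miR-26a-5p, in Ctdspl, chr9:119031811-119031832, and in Ctdsp2, chr10:126995543-126995564: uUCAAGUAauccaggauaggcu
mmu-miR-26b-3p, in Ctdsp1, chr1:74394360-74394381: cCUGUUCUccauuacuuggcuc
mmu-miR-26a-1-3p, in Ctdspl, chr9:119031850-119031871: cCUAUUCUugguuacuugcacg
mmu-miR-26a-2-3p, in Ctdsp2, chr10:126995581-126995602: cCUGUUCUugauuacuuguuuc
The 5p arms of all 3 genes shared the seed UCAAGUA. The 3p arms of Mir26b and Mir26a-2 shared the seed CUGUUCU. Mir26b lies in intron 4 of the 7-exon transcript of Ctdsp1, and Mir26a-1 and Mir26a-2 lie in intron 5 of the 8-exon transcripts of Ctdspl and Ctdsp2. The 3 miR-26 genes were not among the genes listed for the tumors, so their levels were not analysed here.

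The 7 letters TACTTGA, which pair with the 5p seed, were searched for on the sense strand of the 3′ UTR of the longest coding transcript of each member. They were found 1 time in Ctdsp2, in a 3′ UTR of 3483 bases, and 1 time in Ctdspl2, in 3014 bases. The matches are shown in capitals.
Ctdsp2, chr10:126997554-126997578, plus strand, GRCm38: aagtgttgctctTACTTGAtttgcc
Ctdspl2, chr2:122012731-122012755, plus strand, GRCm38: ttgttgacaatgTACTTGAtcagga
The letters were not in the 3′ UTR of Ctdsp1, of 1701 bases, or of Ctdspl, of 3349 bases. Among the 5476 listed protein-coding genes with a 3′ UTR of at least 1500 bases, 20.2% held them. With a floor of 30 bases the share was 9.33%, so it depends on length. Genes with 3′ UTRs as long as those of Ctdsp2 and Ctdspl2 were not compared separately.

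Gene starts were compared by their base composition over 300 bases, from 250 before to 50 after the start given by RefSeq. GC content was 72.0% for Ctdsp1, 79.3% for Ctdspl, 70.0% for Ctdspl2 and 66.7% for the upstream start of Ctdsp2. Ctdsp2 has a second start at 52.7%, which is also the median of the 32851 windows given for mouse genes. CG pairs numbered 25 at the upstream start of Ctdsp2 and 9 at the other, against a median of 7.

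Among the tumors, the depth relative to control 1, read from the steps between values of weak genes, was 0.694 for control 2 and at least 0.871 for every other tumor. Absolute read numbers cannot be had from FPKM. Of the markers of epithelial cells, the origin of a carcinoma, Epcam, Krt19, Cldn4 and Cldn7 were at 0 in at least 1 tumor, and the 7 markers summed to between 11.8 and 145 FPKM in control tumors and between 9.53 and 21.3 FPKM in swimming tumors. The 145 FPKM were those of control 4, with Krt8 at 129 FPKM, and without it the highest control tumor was at 30.5 FPKM. Host cells were present in both groups. The 8 macrophage markers summed to between 679 and 1018 FPKM in control tumors and between 800 and 1185 FPKM in swimming tumors, and the 11 skeletal muscle markers to between 3.34 and 215 and between 2.63 and 299 FPKM. Since the tumors were sequenced whole, fewer cells of a type and less RNA per cell cannot be told apart.

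Ctdsp1 was the most abundant member in 8 of the 12 tumors. Its levels in the control group were 56.5, 59.6, 56.3, 55.2, 50.8 and 54.6 FPKM in tumors 1 to 6. In the swimming group they were 52.5, 53.8, 57.5, 63.0, 66.5 and 54.1 FPKM. Tumors 4 and 5 of the swimming group were above every control tumor and the other swimming tumors lay within the control range. Group means were 55.5 ± 2.88 FPKM in control tumors and 57.9 ± 5.66 FPKM in swimming tumors (SD, n = 6 in each). The difference, swimming minus control, was 0.06 on the log2(FPKM + 1) scale, with a standard error (SE) of 0.06 and a 95% interval from -0.08 to 0.19.

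Ctdsp2 was the member whose level varied most between tumors. Its levels in control tumors 1 to 6 were 22.2, 18.5, 30.2, 15.1, 17.5 and 21.2 FPKM. In swimming tumors 1 to 6 they were 61.9, 66.9, 62.0, 22.6, 26.5 and 54.4 FPKM. Thus tumors 1, 2, 3 and 6 of the swimming group were above all other tumors, while tumors 4 and 5 of the swimming group lay among the control tumors. No tumor lay between 30.2 and 54.4 FPKM, the widest gap, a ratio of 1.80. Of the 12 tumors, 8 lay below the gap and 4 above it. All 6 swimming tumors were above the control median, and the groups overlapped.

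The mean level of Ctdsp2 was 20.8 ± 5.27 FPKM in control tumors and 49.1 ± 19.4 FPKM in swimming tumors (SD, n = 6 in each), a 2.36-fold difference of means. On the log2(FPKM + 1) scale the difference was 1.12, with an SE of 0.27 and a 95% interval from 0.53 to 1.70, and it came 15th in size among the 19018 genes that passed the filter of at least 0.1 FPKM in at least 6 tumors. All 4 members passed this filter. These values chose the family and are given for their size alone. The groups were without overlap for 0 of the 4 members and for 0.147% of all genes tested. The difference was above 0 for 3 of the 4 members and for 51.7% of all genes tested. No gene had an adjusted p below 0.05 (limma with Benjamini-Hochberg adjustment, 0 of 19018, 0%), and 1058 genes (5.56%) had an unadjusted p below 0.05. Without control 4 there were 3 genes with an adjusted p below 0.05, and without swimming 1 there were 2, none of them a member.

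**Figure D1:**
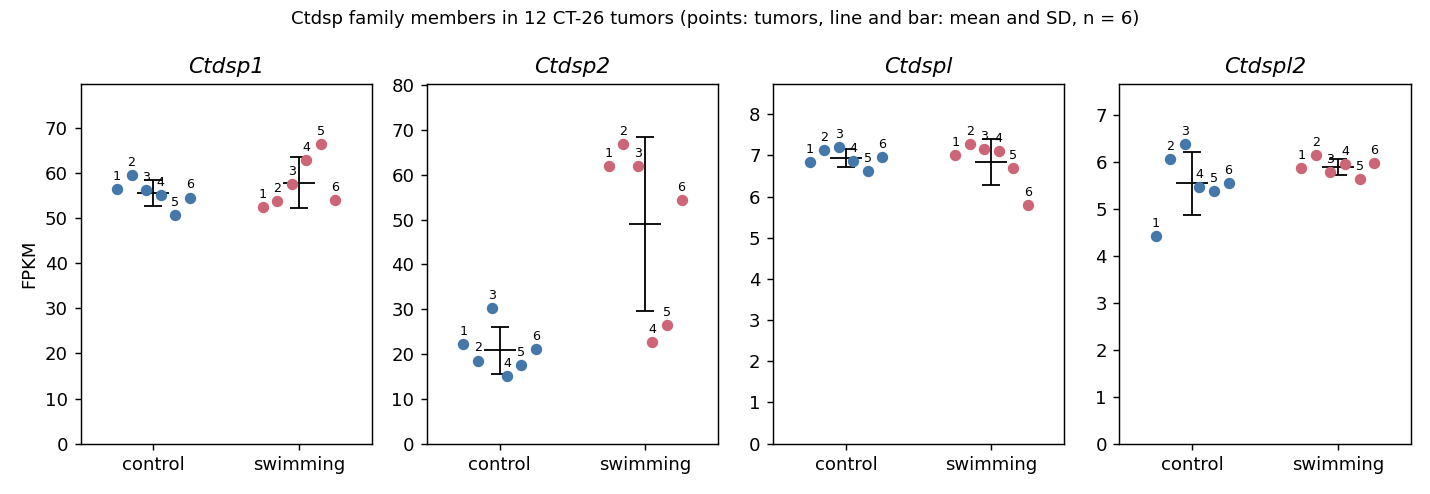
Levels of the 4 members in FPKM (vertical axes, each starting at 0) in control tumors and the swimming group; points are tumors with their replicate number, and the line and bars are the mean and SD of 6 tumors. Ctdsp2 lies at 54.4 FPKM or more in swimming tumors 1, 2, 3 and 6 and at 30.2 FPKM or less in the other 8 tumors, while the 3 other members lie in narrow ranges.

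Ctdspl was expressed at a much lower level than Ctdsp1. In control tumors 1 to 6 it was at 6.84, 7.12, 7.21, 6.86, 6.61 and 6.97 FPKM. Its swimming levels in the same order were 7.01, 7.28, 7.14, 7.09, 6.69 and 5.78 FPKM. Tumor 6 of the swimming group was the lowest and the other 11 tumors lay close together. Group means were 6.94 ± 0.215 FPKM in control tumors and 6.84 ± 0.551 FPKM in swimming tumors (SD, n = 6 in each), and the log2 difference was -0.02 (SE 0.06, 95% interval from -0.14 to 0.10).

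Ctdspl2, the longer relative, was the least abundant member in 11 of 12 tumors. In control tumors 1 to 6 it was at 4.43, 6.06, 6.40, 5.46, 5.39 and 5.55 FPKM. In swimming tumors 1 to 6 it was at 5.88, 6.16, 5.79, 5.95, 5.64 and 5.99 FPKM. Control 1 was the lowest and control 3 the highest, and all swimming tumors lay between them. Group means were 5.55 ± 0.672 FPKM in control tumors and 5.90 ± 0.176 FPKM in swimming tumors (SD, n = 6 in each), and the log2 difference was 0.08 (SE 0.07, 95% interval from -0.07 to 0.23).

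In the control group the order of levels was Ctdsp1 above Ctdsp2 in 6 of 6 tumors, without overlap of their values. In the swimming group Ctdsp1 was above Ctdsp2 in 2 of 6 tumors, so these neighbours in the order did not differ beyond their spread there. Ctdspl was above Ctdspl2 in 11 of 12 tumors, with swimming 6 as the exception. Among the genes tested, the mean level over all tumors stood at percentile 95 for Ctdsp1, 91.4 for Ctdsp2, 63.8 for Ctdspl and 59.8 for Ctdspl2. Ctdsp2 made up 23.2% ± 4.14 of the summed FPKM of the family in control tumors and 39.8% ± 12.3 in the swimming group (SD, n = 6 in each).

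The spread of Ctdsp2 was the widest of the 4 members. Its highest level was 4.43 times its lowest, against 1.31 for Ctdsp1, 1.26 for Ctdspl and 1.44 for Ctdspl2. The median of this ratio was 1.37 over the 5358 genes with a mean of at least 10 FPKM. Of these genes, 2.16% had a ratio at least as large as that of Ctdsp2. Since the family was chosen for the values of Ctdsp2, this share is a description and not a test. Between members, Pearson's r of the log2 levels over the 12 tumors, which share 1 group contrast, ranged from -0.21 for Ctdsp1 and Ctdsp2 to 0.40 for Ctdsp2 and Ctdspl2.

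Genes that share exons with the members were examined, since reads can be divided between overlapping genes. On the same strand as Ctdsp2, chr10:126978717-126999975 on GRCm38, the annotation places 2 miRNA genes. Mir26a-2 shares 1 exon base with the shorter coding transcript of Ctdsp2 and was not among the genes listed for the tumors. Mir546, chr10:126998440-126998560, lies with all of its 121 bases in the last exon of Ctdsp2, in the 3′ UTR. It was listed at 0.232 to 0.334 FPKM. Multiplied by relative depth its value was 0.232 in every tumor, so its listed level moved inversely with depth.

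Ctdsp2 held between 98.2% and 99.6% of the summed FPKM of Ctdsp2 and Mir546. The sum of both differed between the groups by 1.11 on the log2 scale (SE 0.27), against 1.12 for Ctdsp2 alone. Mir546 was listed at 0.334 FPKM or less, a value that followed depth alone. Its share and the sum thus cannot show how reads were divided between the 2 genes. As a background, 262 pairs of genes with shared exon bases on the same strand both had a mean of at least 1 FPKM. In 93 of these pairs (35.5%) the share of one gene in the sum ranged over more than 25 percentage points between tumors.

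Of the other members, Ctdsp1 and Ctdspl share no exon base with a gene on the same strand, and Ctdspl2 overlaps none there. On the opposite strand, Gm2415 shares 3 bases with Ctdspl and Mageb3 shares 92 bases with Ctdspl2. The library kit is not stated to mark the strand, so reads of these bases cannot be told apart.

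**Figure D2:**
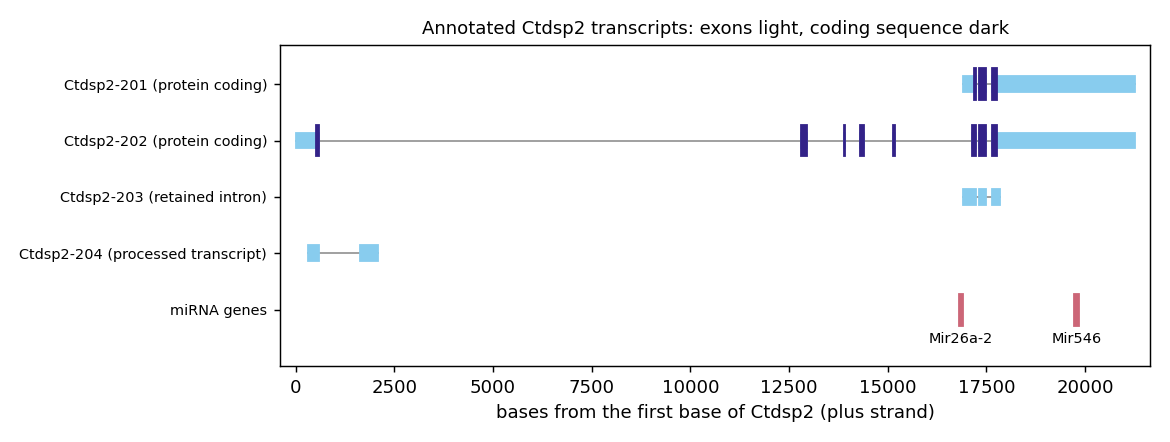
Annotated transcripts of Ctdsp2 and the miRNA genes within it, by distance in bases from the first base of the gene on the plus strand (horizontal axis); light boxes are exons, dark boxes coding sequence and lines introns. The longer coding transcript, of 4817 bases, starts at the upstream end, the shorter, of 4136 bases, starts beside Mir26a-2, both share the long 3′ UTR, and Mir546 lies inside that 3′ UTR.

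The annotation holds 4 transcripts of Ctdsp2. The longer coding transcript has 8 exons and codes for 270 residues. The shorter has 3 exons, starts within 1 base of the end of Mir26a-2 and codes for 119 residues, without the catalytic stretch shown above. A retained intron form of 723 bases and a non-coding form of 732 bases complete the gene. Levels per transcript were not analysed here, so a change in the use of the 2 coding transcripts cannot be told apart from a change of both.

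A processed pseudogene of Ctdsp2, Gm9770 (chr10:130412499-130413309, plus strand), holds a nearly identical copy of the coding sequence. It was chosen after its values were seen. Of its 811 bases, 810 aligned with the whole coding sequence of the longer Ctdsp2 transcript, and 807 (99.6%) were identical. The longest run without a difference was 375 bases. The catalytic stretch of the pseudogene, chr10:130412799-130412858, differed from that of Ctdsp2 at 0 of 60 bases.
Gm9770: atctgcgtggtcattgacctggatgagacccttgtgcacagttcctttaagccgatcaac
Reads from this stretch cannot be given to 1 of the 2 loci by sequence unless they also cover a junction of exons or a neighbouring base that differs, so the values of both genes are uncertain to that extent. How reads with several matches were counted is not given in the sources used here.

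Gm9770 did not follow Ctdsp2 in the 4 tumors where Ctdsp2 was highest. It was at 19.3, 18.1, 26.4, 13.0, 16.4 and 18.2 FPKM in control tumors 1 to 6. The swimming tumors 1 to 6 were at 17.2, 21.7, 20.1, 22.7, 18.1 and 18.4 FPKM. All swimming tumors lay within the control range. Group means were 18.6 ± 4.44 and 19.7 ± 2.18 FPKM (SD, n = 6 in each), and the log2 difference was 0.10 (SE 0.13, 95% interval from -0.18 to 0.38).

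The ratio of Ctdsp2 to Gm9770 was 1.02 to 1.16 in the 6 control tumors. In swimming tumors 1 to 6 it was 3.61, 3.09, 3.08, 0.996, 1.46 and 2.95. Levels of the gene and its pseudogene were thus close to each other in all control tumors and in swimming tumor 4, and apart in swimming tumors 1, 2, 3 and 6. The sum of both genes was 39.4 ± 9.66 FPKM in control tumors and 68.8 ± 19.1 FPKM in swimming tumors (SD, n = 6 in each), a log2 difference of 0.77 (SE 0.20). FPKM is per length, with 811 bases for Gm9770 and 4817 for the longer Ctdsp2 transcript. A read moved between the loci would therefore not leave their sum unchanged, and the sum is only a description. The part of read division between both loci in the levels of Ctdsp2 was not tested.

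**Figure D3:**
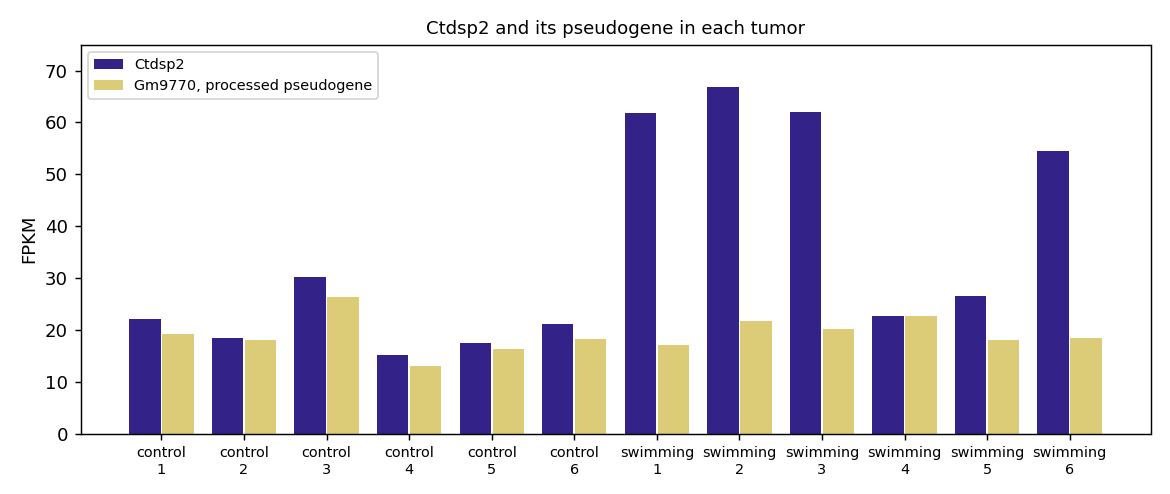
Levels of Ctdsp2 (dark bars) and of its processed pseudogene Gm9770 (light bars) in FPKM (vertical axis, from 0) in each of the 12 tumors. The bars are close in height in the control tumors, where their ratio is 1.02 to 1.16, and stand apart in swimming tumors 1, 2, 3 and 6, where it is 2.95 or more.

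Genes near Ctdsp2 were compared to see whether its difference was shared by the region. Within 100 kb on either side 15 genes were listed, and 13 of them passed the filter. Their log2 differences ranged from -0.37 to 0.25. The value of 1 of the 13 had an unadjusted p below 0.05, against 5.56% of all genes tested, and 0 had groups without overlap. This was Agap2, a GTPase-activating protein gene, at 0.465 ± 0.125 FPKM in control tumors and 0.738 ± 0.167 FPKM in swimming tumors (SD, n = 6 in each). Its log2 difference was 0.25 (SE 0.08) with an adjusted p of 0.889 (limma).

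Avil, which codes for the actin-binding protein advillin, begins 734 bases after the end of Ctdsp2. It was at 8.84, 6.48, 7.67, 10.4, 19.99 and 15.2 FPKM in control tumors 1 to 6. Swimming tumors 1 to 6 had 18.6, 9.43, 9.55, 3.05, 2.89 and 14.4 FPKM. Swimming tumors 4 and 5, which had the lowest Ctdsp2 of their group, also had the lowest Avil, whereas control 5 had the highest Avil and a low Ctdsp2. The log2 difference of Avil was -0.37 (SE 0.41, adjusted p = 0.940, limma), and its interval, from -1.25 to 0.50, was wide. Cdk4, the cyclin D kinase, lies 63559 bases away and had a log2 difference of -0.09 (SE 0.06).

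**Figure D4:**
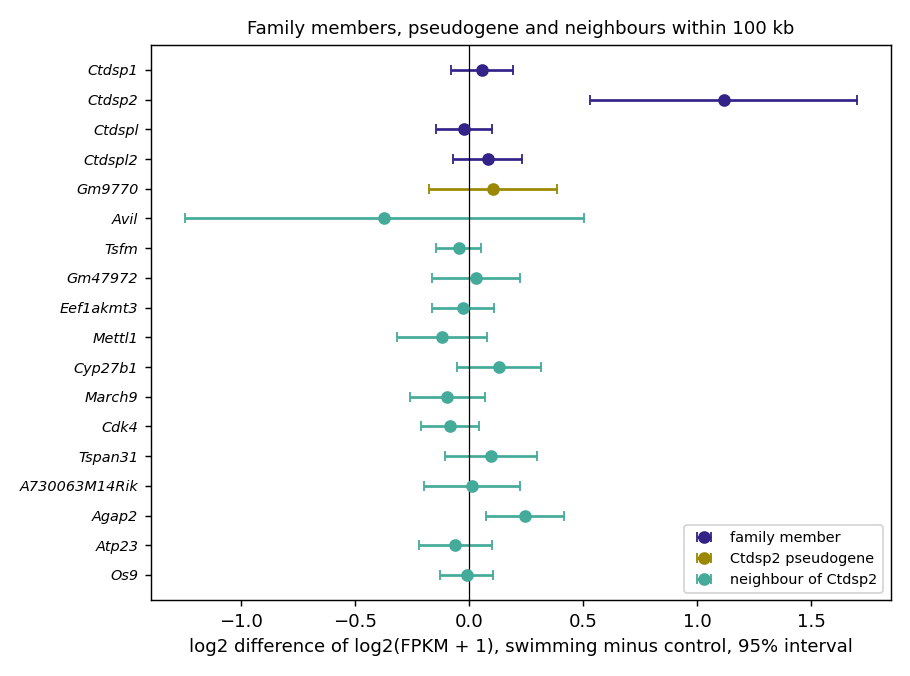
Difference of log2(FPKM + 1), swimming minus control (horizontal axis, points), with its 95% interval (bars), for the 4 members, the pseudogene Gm9770 and the 13 tested genes within 100 kb of Ctdsp2, in order of distance. Ctdsp2 stands at 1.12, and the other 17 genes lie between -0.37 and 0.25.

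Gene groups in which the family works were compared next. The 8 groups held 89 genes, of which 79 were tested. An unadjusted p below 0.05 was found for 6 of them (7.59%), 1 higher and 5 lower in the swimming group, against 5.56% of all genes tested (3.11% higher and 2.46% lower). None of the 79 had an adjusted p below 0.05. The median log2 difference of each group lay between -0.05 and 0.06, and that of all genes tested was 0.00.

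Genes of other phosphatases of this fold or of the polymerase tail, such as Ctdp1 and Ssu72, and of a regulatory subunit were compared. They were measured in 7 of 7 cases, with a median log2 difference of -0.01 and none at an unadjusted p below 0.05. The largest difference was that of Rpap2, a serine 5 phosphatase, which was at 2.96 ± 0.108 FPKM in control tumors and 2.71 ± 0.145 FPKM in swimming tumors (SD, n = 6 in each), with a p of 0.106 before and 0.899 after adjustment (limma). Of 16 genes for kinases that act on the tail, their cyclins and the polymerase subunit itself, the median was 0.00 and 1 was lower at an unadjusted p below 0.05. This was Ccnc, the cyclin of the Mediator kinase, at 5.11 ± 0.936 and 3.84 ± 1.15 FPKM (log2 difference -0.35, SE 0.14, adjusted p = 0.889, limma).

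The 12 genes of the REST corepressor complex had a median log2 difference of 0.02 and none had an unadjusted p below 0.05. Rest itself was at 12.7 ± 0.424 FPKM in control tumors and 13.3 ± 0.879 FPKM in swimming tumors (SD, n = 6 in each). The largest difference was that of Phf21a, which reads unmodified histone tails, at 0.13 (SE 0.09, adjusted p = 0.911, limma). Of 17 neuronal genes that REST is known to silence, 9 were tested and 6 were listed at 0 in at least 1 tumor. Their median was -0.02, and it was -0.32 with a filter of 1 FPKM, which keeps fewer of them. Of the 9, 4 were higher and 5 lower in the swimming group. The 4 most abundant of them had similar differences, of -0.32 for the neurofilament genes Nefl (SE 0.24) and Nefm (SE 0.19), -0.34 for Vgf (SE 0.18) and -0.35 for Tubb3. Of these, 1 had an unadjusted p below 0.05. This was Tubb3, a neuronal tubulin, at 12.1 ± 1.29 and 9.37 ± 1.74 FPKM (log2 difference -0.35, SE 0.10, adjusted p = 0.889, limma). Differences of the other tested genes were 0.04 for Syn1, 0.19 for Chga, 0.07 for Syt4, 0.09 for L1cam and -0.02 for Syp.

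Of 8 SMAD genes, 7 were tested and none had an unadjusted p below 0.05. Their median log2 difference was 0.06, and the largest was that of Smad5, a BMP signal carrier, at 0.25 (SE 0.17, adjusted p = 0.914, limma). Among 10 target genes of TGF-beta and BMP the median was -0.03. Ccn2, a matricellular protein gene, was lower at an unadjusted p below 0.05. It ranged from 10.1 to 60.9 FPKM around a median of 24.9 in control tumors and from 9.43 to 17.0 FPKM around a median of 12.6 in the swimming group. The groups overlapped, and the log2 difference was -0.92 (SE 0.35, adjusted p = 0.889, limma).

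Other proteins from which the family is reported to remove phosphate, such as Snai1 and Rb1, were represented by 7 genes, with a median of -0.05. Myc and Foxo1 were lower at an unadjusted p below 0.05. Myc ranged from 26.6 to 41.0 FPKM (median 31.6) in control tumors and from 20.6 to 30.5 FPKM (median 26.8) in the swimming group, a log2 difference of -0.35 (SE 0.12). Foxo1 ranged from 3.29 to 4.19 FPKM (median 3.90) and from 2.71 to 3.49 FPKM (median 3.00), a log2 difference of -0.25 (SE 0.07). For both genes all 6 swimming tumors were below the control median, the groups overlapped, and the adjusted p was 0.889 (limma). These are RNA levels, and phosphorylation of the proteins was not measured.

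Genes known as targets of miR-26 were compared because of the miR-26 genes inside the family. Of 12 genes, among them Ezh2 and Ccne1, 11 were tested, with a median log2 difference of 0.05. Cdk6, a cyclin D kinase, was higher at an unadjusted p below 0.05, with 14.03 to 17.6 FPKM (median 16.7) in control tumors and 17.0 to 20.9 FPKM (median 19.1) in the swimming group. Its log2 difference was 0.19 (SE 0.07, adjusted p = 0.889, limma), and the groups overlapped.

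**Figure D5:**
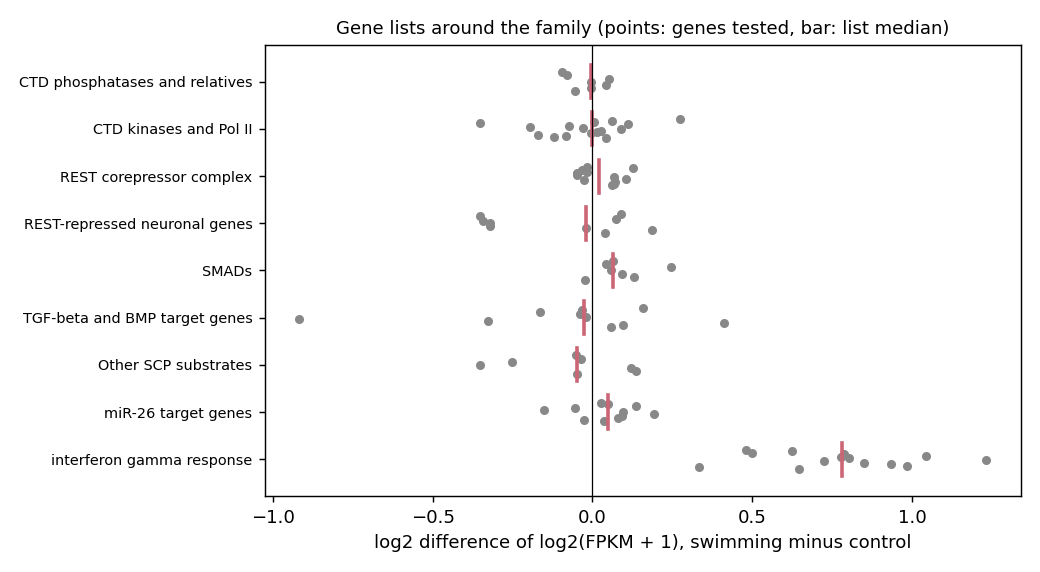
Difference of log2(FPKM + 1), swimming minus control (horizontal axis), of each tested gene (points) in the 8 groups around the family and in the interferon gamma response, with the median of each group (bar). Medians of the 8 groups lie between -0.05 and 0.06, and that of the interferon gamma response lies at 0.78.

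Genes of the interferon gamma response, an immune signal, are set beside Ctdsp2 because most of them had a p below the threshold before adjustment. Of the 14 genes, 13 were higher at an unadjusted p below 0.05, against 3.11% of all genes tested, and 0 had an adjusted p below 0.05. The group was chosen for these values, so they are a description. The median log2 difference was 0.78. The 13 genes had log2 differences from 0.48, for the immunoproteasome gene Psmb9, to 1.23, for the GTPase gene Irgm2. Summed over the group, levels in control tumors 1 to 6 were 223, 227, 287, 338, 169 and 251 FPKM. In swimming tumors 1 to 6 they were 173, 398, 503, 442, 631 and 581 FPKM. The order of tumors was not that of Ctdsp2. Swimming tumor 1 was near the low end of this sum with Ctdsp2 at 61.9 FPKM, and swimming tumor 5 was the highest with Ctdsp2 at 26.5 FPKM. The 8 T and NK cell markers summed to 12.7 to 27.9 FPKM in control tumors and 10.8 to 31.0 FPKM in swimming tumors, with 3 of 8 higher at an unadjusted p below 0.05 and none at 0 in any tumor. Their part in the level of Ctdsp2 was not tested.

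Genes whose levels were most like those of each member over the 12 tumors were ranked by Pearson's r of log2(FPKM + 1), among 12788 genes with a mean of at least 1 FPKM. The tumors share the group contrast and Ctdsp2 has a wide gap in its values, so r within each group of 6 is given beside it, as a description. All of these genes were picked for their r over the same tumors. A high r within a group, and shared high or low tumors, therefore follow in part from the choice. Closest to Ctdsp2 was Zc3h12a, which codes for the ribonuclease Regnase-1, with r = 0.91 over all tumors, 0.87 in control tumors and 0.86 in the swimming group. It was at 4.12 to 5.54 FPKM in the control group, with swimming tumors 1 to 6 at 6.52, 5.43, 6.03, 4.68, 4.53 and 6.21 FPKM. Like Ctdsp2, Zc3h12a had its lowest swimming levels in tumors 4 and 5.

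The next genes were Atf3, a transcription factor gene, at r = 0.91 (0.47 in control tumors and 0.93 in the swimming group), and Gadd45b, at r = 0.90 (0.91 and 0.98). Gadd45b was at 10.8 to 16.3 FPKM in control tumors and at 17.3, 16.7, 17.7, 11.3, 11.1 and 16.1 FPKM in swimming tumors 1 to 6. Atf3 was at 2.07 to 3.07 FPKM in control tumors and at 3.75, 4.86, 5.06, 2.38, 2.98 and 4.43 FPKM in swimming tumors 1 to 6. Both genes had their lowest swimming levels in tumors 4 and 5. Zhx2, a zinc finger and homeobox gene, followed at r = 0.83 (0.90 and 0.89), and Hspa1a, which codes for an inducible Hsp70 chaperone, at r = 0.83 (0.37 and 0.83). Hspa1a was at 3.21 to 7.07 FPKM in control tumors and 3.12 to 13.4 FPKM in swimming tumors, highest in swimming tumors 1 and 2.

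The genes closest to Ctdsp1 were Map3k14, which codes for the kinase NIK, at r = 0.96, Kbtbd11 at 0.94 and Serinc5 at 0.93, with 0.80 to 0.89 within the control group and 0.96 to 0.98 within the swimming group. Map3k14 was at 5.39 to 6.74 FPKM in control tumors and at 5.55, 5.79, 6.26, 7.50, 8.23 and 5.38 FPKM in swimming tumors 1 to 6, so it was highest in the same 2 tumors as Ctdsp1. For Ctdspl they were Gm38563, Wipi1 and Fmnl3, at r from 0.91 to 0.92. Within the control group r was 0.18 for Gm38563, 0.81 for Wipi1 and 0.71 for Fmnl3, and within the swimming group it was 0.95 to 0.98. Like Ctdspl, all 3 had their lowest level in swimming tumor 6. For Ctdspl2 they were Mycbp2, Ash1l and Phip, at r from 0.92 to 0.95, with 0.95 to 0.97 within the control group and 0.41 to 0.57 within the swimming group.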

How the data were processed

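RNA-seq was performed on 12 CT-26 tumors, 6 of the control group and 6 of the swimming group. The authors removed ribosomal RNA, mapped reads with HISAT2 2.0.5 and deposited 1 FPKM value per gene and tumor from StringTie 1.3.3. FPKM is already divided by gene length and depth, so read numbers, and with them a counting error, cannot be had. The methods name hg38, the processing notes hg38 and GRCm38, and the files list mouse Ensembl identifiers. Of these, 30578 of 30630 were found in GENCODE M21 (GRCm38), from which symbols, coordinates and transcripts were taken. It was matched by identifier only.

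Groups and replicate numbers are from the sample labels. Genes that reached 0.1 FPKM in 6 or more tumors were compared on log2(FPKM + 1), which understates the change of weak genes, with limma 3.58.1 (R 4.3.3), eBayes with trend and Benjamini-Hochberg adjustment over 19018 genes. Tumors are from separate mice.

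The members and gene lists were chosen with earlier results of these data known, and members were not tested. Named are the members, genes that overlap them on the same strand, miRNA genes within them, neighbours of Ctdsp2 within 100 kb, the 5 genes most like Ctdsp2 and the 3 most like each other member by r, and in each list the genes at an unadjusted p below 0.05 or else the one with the largest difference, except that the interferon gamma genes are given by their range and not all are reported here. Named outside this rule, after values were seen, are Gm9770, the opposite-strand genes, marker genes and the genes called with a tumor left out. The same holds for Nefl, Nefm, Vgf and the other tested REST-repressed genes. Ctdp1, Ssu72, Rest, Snai1, Rb1, Ezh2 and Ccne1 are named as examples of what their lists hold. Of the list genes, Snap25 was not matched. Alternatives were pseudocounts of 0.1 and 0.01, no filter, a filter of 1 FPKM, quantile and trimmed mean scaling, eBayes without trend, a block for the replicate number, and each tumor left out in turn. Sequences were read with Biopython 1.88, and plots drawn with matplotlib 3.10.9.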

Additional observations from a re-analysis of the deposited data

Results flagged for a closer look

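Within each group of 6 tumors, the highest or lowest tumor was compared with the rest by the ratio of its gap to the group's range against Dixon's 95% critical value. No level of Ctdsp1, Ctdsp2, Ctdspl or Ctdspl2 stood apart in this way. The ratio looks at 1 tumor at a time and misses 2 tumors that lie apart together. For Ctdsp2 it therefore says nothing about swimming tumors 4 and 5, which lay together below the others of their group. Of 110 groups of values examined, 8 had such a tumor, and chance gives about 1 in 20, or 5.5, for independent and unselected groups. These groups are neither, since Zc3h12a, Gm38563 and Wipi1 were among those picked for their r with a member over the same tumors. The number expected is therefore only a rough guide. Mir546, inside the 3′ UTR of Ctdsp2, was at 0.334 FPKM in control 2, the tumor with the lowest depth, with the next control tumor at 0.265 FPKM. Zc3h12a, closest to Ctdsp2 in its pattern, was at 5.54 FPKM in control 3, which also had the highest Ctdsp2 of the control group, with the next at 4.65 FPKM. Gm38563 was at 0.501 FPKM and Wipi1 at 5.32 FPKM in swimming 6, the tumor with the lowest Ctdspl, with the next swimming tumors at 1.22 and 8.10 FPKM. Of the genes near Ctdsp2, Gm47972 was at 0.394 FPKM in control 1, with the next at 0.140 FPKM, and Atp23 at 2.50 FPKM in control 1, with the next at 2.91 FPKM. Ccnc was at 6.14 FPKM in swimming 6, with the next at 3.59 FPKM. Cxcl9, of the interferon gamma response, was at 25.4 FPKM in control 4, with the next at 12.4 FPKM.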

How the results depend on the processing

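The log2 difference of Ctdsp2, 1.12, was 1.00 (without swimming 2) to 1.31 (without swimming 4) with 1 tumor left out and 1.11 to 1.15 under the other settings. Added to the pseudogene Gm9770, an alternative chosen after seeing the data, it was 0.77. Because the loci differ in length, this sum does not correct for reads divided between them. With 1 tumor left out, Ctdsp1 ranged from 0.02 to 0.08, Ctdspl from -0.04 to 0.02 and Ctdspl2 from 0.03 to 0.12. Of 265 alternative values for members and lists, 264 moved by less than 1 SD. The exception was the median of the REST-repressed neuronal genes, -0.32 instead of -0.02 with a filter of 1 FPKM, which tests fewer genes. For Ctdsp2 this SD, the spread between tumors of a group, was 0.53, against an SE of 0.27. Leaving out 1 tumor shifts a group mean by only part of that tumor's deviation, too little to move a member by 1 SD. For the members, the count with 1 tumor left out therefore cannot show that a difference is stable. A changed filter leaves a member's difference as it is. So does a replicate block, since each number occurs once in each group. Those values, which are in the count too, cannot show it either. The sum with Gm9770, 0.77 against 1.12, was also counted as within 1 SD. Genes with an adjusted p below 0.05 numbered 0 to 3 with 1 tumor left out and 0 under every other setting. They were 3 without control 4 (Txndc5, Phospho2 and Atp6v0c) and 2 without swimming 1 (Gm13419 and Klf9), and none was a family member. FPKM gives no read numbers, so the precision of weak genes is unknown. The listed value of Mir546 followed depth alone.

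The replicate numbers 1 to 6 occur in both groups but the tumors are from different mice. Deviations of same-numbered tumors had a mean r of -0.12, and 0 of 6 control tumors correlated best with their own number. These values thus showed no pairing by number. With 6 pairs they cannot show that same-numbered tumors shared no step of handling, which was not tested. With a replicate block, 0 genes had an adjusted p below 0.05 and 892 instead of 1058 an unadjusted one. The log2 difference of Ctdsp2 under the block was 1.12, which the block cannot change because each number occurs once in each group. The SE of this difference was 0.17 with the block and 0.27 without it.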
